A study of Mus musculus with 6 samples.

Results

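Transcription factors that set up and maintain the steroid-producing cells of the adrenal cortex were followed in glands of mice without a working clock, 46 h and 54 h after lights off. The 6 genes were Nr5a1, Nr0b1, Gata4, Gata6, Cited2 and Wt1, chosen by name with earlier results of these data known, and every probe set was taken whose platform annotation gives exactly 1 of these symbols. They are 6 of the 18163 genes so named on the array and gave 11 of the 44935 probe sets used: 2 for Nr5a1, 1 for Nr0b1, 2 for Gata4, 3 for Gata6, 2 for Cited2 and 1 for Wt1. None of the 6 genes changed past the test between the time points. The largest value among those past the filter was that of Cited2, whose probe set 1421267_a_at read 1.29-fold higher at 54 h without overlap between the arrays, as 6.48% of all probe sets tested did; its other probe set read 1.14-fold higher, with overlap. Nr5a1, Nr0b1 and Gata6 were within the spread of their arrays, and the probe sets for Gata4, Wt1 and 1 of those for Nr5a1 were too dim for the main fit.

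The animals were male mice, 3 months of age, that lack Cry1 (Cry1-/-) and carry the Per2Brdm1 mutation, on a mixed background of C57BL6 and 129Sv. They were entrained to a light-dark cycle and then kept in constant darkness, and whole adrenal glands, cortex and medulla together, were taken. Both groups carry both mutations, and wild-type glands were not analysed here, so the data compare 2 times in 1 genotype. Each time had 3 arrays: replicates B and C, and 1 without a letter in its title, called replicate 1 here. The labels do not say how many animals a sample holds. P-values therefore cover only the variation among these samples, part of which may be technical. Any difference in collection between the times cannot be told apart from time. Array medians were 204 to 217 intensity units, and the number of arrays limits the precision.

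Nr5a1 encodes SF-1, an orphan nuclear receptor that binds as a monomer and drives the genes of steroid synthesis; without it no adrenal gland forms. Nr0b1 encodes DAX-1, an atypical receptor without a zinc-finger DNA-binding domain, which represses SF-1. GATA4 and GATA6 are zinc-finger factors that cooperate with SF-1; in the mouse adrenal GATA6 is found in the cortex after birth, whereas GATA4 is chiefly a factor of the early adrenogonadal primordium and of the gonad. CITED2 is a co-regulator without a DNA-binding domain that recruits the acetyltransferases CBP and p300, and together with WT1, a zinc-finger factor of the coelomic epithelium, it raises Nr5a1 in the primordium.

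The glands carried the markers of both of their parts. All 7 measured cortex genes, among them Star and Cyp11a1, and all 9 measured medulla genes, among them Th and Dbh, passed the filter on low values. The X-zone markers Akr1c18 and Pik3c2g were below the filter level on all arrays. The filter kept probe sets whose mean log2(intensity + 16) exceeded the 40th percentile, a level of 139 units, and left 26961. In whole glands, fewer cells of a type and less RNA per cell cannot be told apart.

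Of the 11 probe sets, 7 passed the filter, covering 4 of the 6 genes. At an adjusted p of 0.05 in limma 0 of the 7 passed, where 0.115% of all probe sets did. Without adjustment, limma put 1 of the 7, Cited2 1421267_a_at, under a p of 0.05, against 10.1% of all probe sets; this one was also the only member without overlap between the times, higher at 54 h, as were 6.48% of all probe sets (9.05% were lower without overlap). A count of 1 in 7 is near these shares. The median change of the 7 was 0.0046 on the log2 scale, with 4 higher and 3 lower, beside -0.02 over all probe sets tested. For 6 of the 7 the 95% confidence interval excluded a 1.5-fold change either way, and for all 7 a 2-fold change. Of those past the unadjusted level in the whole table, 43.0% were higher; with arrays centred on their medians it was 58.8% and with quantile normalization 50.9%.

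**Figure D1:**
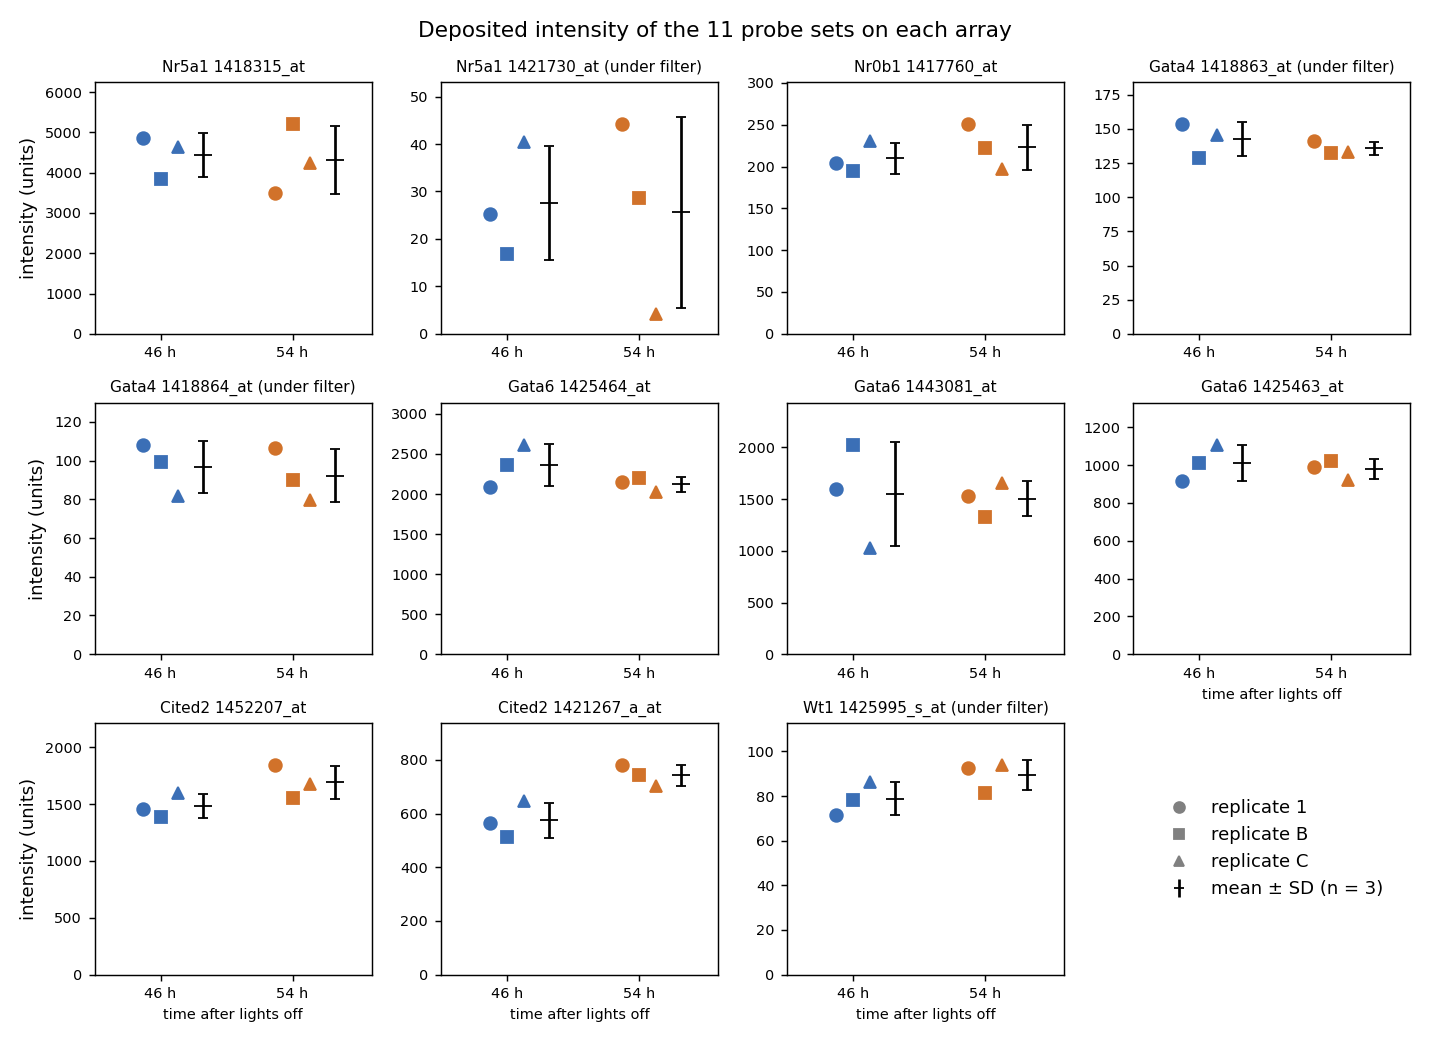
Deposited intensity (linear units, axes from 0) of each of the 11 probe sets on the 3 arrays of 46 h (blue) and of 54 h (orange); symbols give the replicate, and the bar gives mean ± SD. The arrays of the times are apart only for Cited2 1421267_a_at, at 513 to 646 units against 703 to 780.4 units.

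Cited2 had the largest change among the members past the filter. Probe set 1421267_a_at gave 563 units on 46 h replicate 1, 513 on B and 646 on C, and 780.4, 745 and 703 units on the 54 h arrays named alike. Every 54 h array lay above every 46 h array. The means were 574 ± 67.0 and 743 ± 38.6 units (SD, n = 3 each). The log2 change was 0.37 ± 0.11 SE, with a 95% confidence interval of 1.09-fold to 1.53-fold and a limma adjusted p of 0.312, so the change did not pass. It stayed between 0.29 and 0.45 when each array in turn was left out.

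The other Cited2 probe set, 1452207_at, read 1457, 1391 and 1598 units at 46 h and 1844, 1558 and 1677 units at 54 h. Here the times overlapped, because 46 h replicate C exceeded 54 h replicate B. Means were 1482 ± 106 and 1693 ± 144 units (SD, n = 3 each). The log2 difference was 0.19 ± 0.09 SE, with an interval of -0.02 to 0.39 and a limma adjusted p of 0.530. All 3 of the 54 h arrays lay above the 46 h mean, by 0.31, 0.07 and 0.18 for replicates 1, B and C, as they did for 1421267_a_at, by 0.44, 0.37 and 0.29. The 2 probe sets' deviations from their own means had a root mean square difference of 0.11 over the 6 arrays, the farthest on 54 h replicate B at 0.21. With arrays centred on their medians the changes were 0.39 for 1421267_a_at and 0.22 for 1452207_at, and with quantile normalization 0.39 and 0.20; under both scalings 2 member probe sets, both of Cited2, reached an unadjusted p of 0.05 in limma and 0 passed when adjusted.

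Genes of other tissues also differed between the times on these arrays. The summed intensity of 10 measured liver genes was 3854 to 6044 units at 46 h and 8351 to 12379.8 units at 54 h. Of the 9 past the filter, 7 were higher at an unadjusted p of 0.05 in limma, against 4.34% of all probe sets tested. The adjusted test was passed by 2 of them, against 0.115% of all. Both Cited2 probe sets were highest on 54 h replicate 1, where the liver sum was 8351 units, the lowest of the 54 h arrays, and the adipose sum 29619.9 units, the highest of all. The 5 measured adipose genes summed to 22368 to 28295 units at 46 h and 24290.4 to 29619.9 units at 54 h. At an unadjusted p of 0.05 in limma 3 were higher, Lep, Ucp1 and Cidea, and 0 passed the adjusted test. Each of the 3 was without overlap, as were 6.48% of all probe sets tested. The other 2, Adipoq and Fabp4, the brightest of the 5, had changes of -0.11 and -0.06, with overlap. The 4 erythroid genes summed to 1497 to 1942 units at 46 h and to 2020.3 to 2457 units at 54 h. At an unadjusted p of 0.05 in limma 2 were higher, Hbb-b2 and Alas2, of which Hbb-b2 passed the adjusted test. The other globin gene, Hba-a1, had a change of -0.30 ± 0.30 SE, and Slc4a1 had 0.09 ± 0.12, both with overlap. The summed medulla genes ran from 82250.0 to 87256 units at 46 h and from 78366 to 83794 at 54 h. The 9 immune genes summed to 29028 to 30040.4 and to 26466 to 26824 units, lower at 54 h without overlap. Of these, 6 had negative and 3 positive changes. At an unadjusted p of 0.05 in limma 4 were lower, against 5.75% of all probe sets tested. The 6 endothelial genes, at 10621 to 12022 and 10243 to 10609 units, were narrowly without overlap, lower at 54 h. Of them, 4 had negative and 2 positive changes, and only Kdr, lower, reached that level. The summed cortex, zona glomerulosa, capsule and stroma, mesothelium and kidney tubule genes overlapped between the times. None of the genes on these lists was at 0 on all arrays. The part of these cells in the Cited2 values was not tested.

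**Figure D2:**
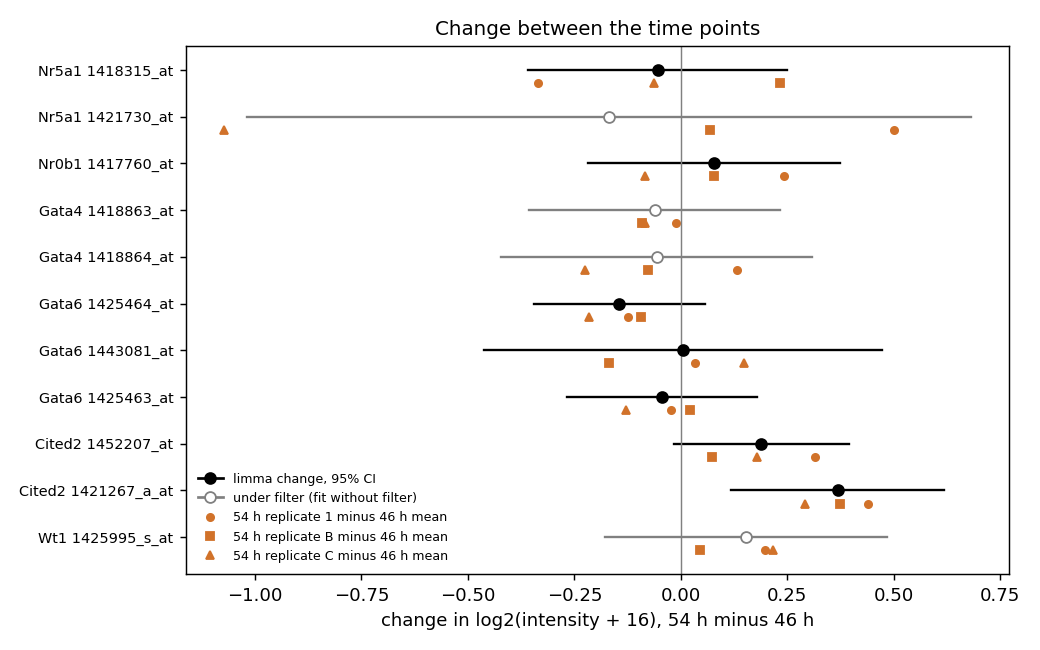
Change of each probe set between 46 h and 54 h in log2(intensity + 16), with the limma 95% confidence interval (filled: past the filter; open: under it, from the fit without a filter) and each 54 h array's distance from the 46 h mean (orange). Only the interval of Cited2 1421267_a_at, at 0.12 to 0.62, leaves out 0.

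Promoter sequence was taken for 2 of the 6 genes from a RefSeq table of build GRCm38.p6, Cited2 and Nr0b1. No window was taken for Nr5a1, Gata4, Gata6 and Wt1. Member rows on 1 chromosome were left out, so a missing window does not show that a gene has no entry there. The 250 bases before the annotated start are shown because Cited2 is the member with the largest change and Nr0b1 is a known target of SF-1. Both windows were searched on both strands for the E-box CACGTG, the element of CLOCK and BMAL1; the nuclear receptor core motif AGGTCA, which SF-1 also reads; the GATA site AGATAA; the cAMP element TGACGTCA; and the D-box TTATGTAA. Capitals mark the matches. The Cited2 window is chr10:17722978-17723227 on the + strand, and the Nr0b1 window is chrX:86191525-86191774 on the + strand.
Cited2: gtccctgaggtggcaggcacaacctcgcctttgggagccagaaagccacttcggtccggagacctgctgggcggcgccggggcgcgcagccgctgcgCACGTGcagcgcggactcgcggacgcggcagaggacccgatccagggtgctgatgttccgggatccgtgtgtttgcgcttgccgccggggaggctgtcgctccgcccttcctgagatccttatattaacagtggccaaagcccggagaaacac
Nr0b1: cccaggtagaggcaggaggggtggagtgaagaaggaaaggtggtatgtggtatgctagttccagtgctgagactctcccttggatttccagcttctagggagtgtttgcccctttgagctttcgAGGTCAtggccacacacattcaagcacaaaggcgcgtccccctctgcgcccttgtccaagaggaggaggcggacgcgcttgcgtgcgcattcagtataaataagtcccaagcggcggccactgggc
The Cited2 window held 1 E-box, 153 to 148 bases before the start, and the Nr0b1 window held 1 receptor core motif, 126 to 121 bases before it; no match overlapped another motif of the search. Of 32851 promoter windows of 250 bases, 6.02% hold the E-box, 14.0% the receptor core motif, 9.99% the GATA site, 1.55% the cAMP element and 0.819% the D-box. A match describes the letters and does not show that a factor binds.

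Nr5a1 was read by 1 bright and 1 dim probe set. The bright one, 1418315_at, gave 4861, 3835 and 4637 units at 46 h and 3502, 5202 and 4233 units at 54 h, in the order replicate 1, B, C used throughout. The lowest and the highest of all 6 arrays were both from 54 h, replicates 1 and B, so the 46 h values lay inside the 54 h range. The mean was 4444 ± 539 units (SD, n = 3) at 46 h and 4313 ± 853 units (SD, n = 3) at 54 h. This is -0.05 ± 0.14 SE as a log2 difference, with a 95% confidence interval of -0.36 to 0.25 and a limma adjusted p of 0.927. Its sign rested on single arrays: it became 0.09 when 54 h replicate 1 was left out, 0.01 for 46 h replicate 1 and -0.20 for 54 h replicate B. The dim probe set, 1421730_at, read 16.9 to 40.5 units at 46 h and 4.19 to 44.2 units at 54 h, far under the filter level; from a fit without the filter its change was -0.17 ± 0.38 SE. Its deviation from its own mean differed from that of the bright one by up to 0.95 on the log2 scale, on 54 h replicate C.

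Nr0b1, the repressor of SF-1, had 1 probe set, 1417760_at. It read 204, 195 and 231 units at 46 h and 251, 222 and 197 units at 54 h. The highest value was on 54 h replicate 1, but 54 h replicate C was next to the lowest of all arrays. The mean was 210.0 ± 18.6 units (SD, n = 3) at 46 h and 223 ± 26.9 units (SD, n = 3) at 54 h. The log2 difference of 0.08 ± 0.13 SE had an interval of -0.22 to 0.37 and a limma adjusted p of 0.886. Without 54 h replicate 1 it was -0.0025.

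Gata6, the GATA factor of the postnatal cortex, had 3 probe sets, of which 2 ran together and 1 did not. Probe set 1425464_at read 2091, 2367 and 2616 units at 46 h and 2152, 2201 and 2019.7 units at 54 h. The 2 highest values were from 46 h, but 46 h replicate 1 lay below 2 of the 54 h arrays. The mean was 2358 ± 263 units (SD, n = 3) at 46 h and 2124 ± 93.9 units (SD, n = 3) at 54 h. The log2 difference of -0.14 ± 0.09 SE had an interval of -0.35 to 0.06 and a limma adjusted p of 0.625. Leaving out 46 h replicate 1 gave -0.23, and leaving out 46 h replicate C gave -0.07.

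Probe set 1425463_at followed the same order at 46 h, with 915, 1011 and 1108 units, and read 992, 1023 and 921 units at 54 h. Its log2 change was -0.04 ± 0.10 SE. The deviations of these 2 probe sets from their means differed by a root mean square of 0.05 over the 6 arrays and by at most 0.07. The annotation lists the same source record for both, so they are not independent readings of the gene. Probe set 1443081_at, listed with another record, read 1600.2, 2026 and 1026 units at 46 h and 1529, 1328 and 1658 units at 54 h. It was lowest on 46 h replicate C, where the other 2 were highest. Its deviations differed from those of 1425464_at by a root mean square of 0.38 and by 0.76 on that array. Its SD of log2 values at 46 h was 0.49, against 0.16 and 0.14 for 1425464_at and 1425463_at. The change of 0.0046 ± 0.21 SE ranged from -0.26 without 46 h replicate C to 0.22 without 46 h replicate B, and its interval, -0.46 to 0.47, was the widest of the 7.

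**Figure D3:**
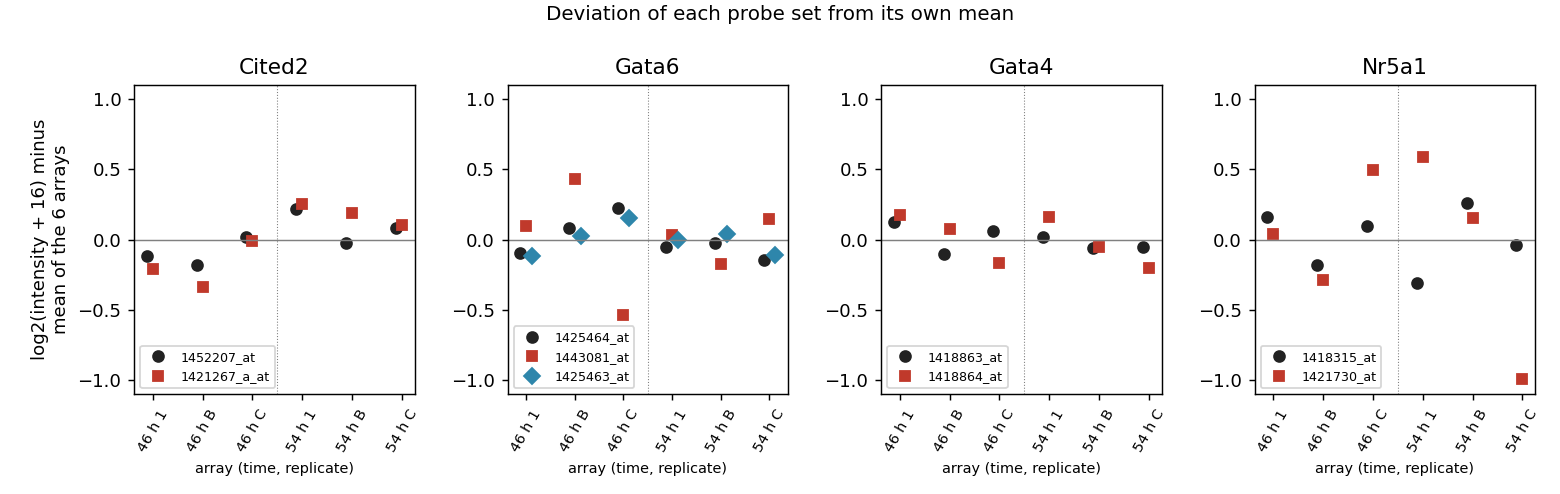
Deviation of each probe set from its own mean over the 6 arrays, in log2(intensity + 16), for the genes with more than 1 probe set; the dotted line parts 46 h from 54 h. Gata6 1443081_at lies apart from the other 2 on 46 h replicates B and C, while the 2 for Cited2 stay within 0.21 of each other.

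Gata4 lay at the edge of the filter. Probe set 1418863_at read 153, 129 and 146 units at 46 h and 141, 133 and 133 units at 54 h, so the times overlapped, and its mean log2 value fell just under the filter level. From a fit without the filter the log2 change was -0.06 ± 0.13 SE (limma adjusted p = 0.923). Probe set 1418864_at read 108, 99.5 and 81.8 units at 46 h and 107, 90.1 and 79.7 units at 54 h, with a change of -0.06 ± 0.16 SE. The root mean square difference between the deviations of the 2 probe sets was 0.14. The deposited table gives no detection calls, so whether these levels lie above background was not tested.

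Wt1 was read by 1 probe set, 1425995_s_at, whose suffix marks probes that several transcripts may share. It gave 71.5, 78.4 and 86.5 units at 46 h and 92.5, 81.6 and 93.9 units at 54 h. The times overlapped, since 46 h replicate C exceeded 54 h replicate B. The mean was 78.8 ± 7.50 units (SD, n = 3) at 46 h and 89.3 ± 6.74 units (SD, n = 3) at 54 h, and all arrays were below the filter level. The log2 change without a filter was 0.15 ± 0.15 SE, with an interval of -0.18 to 0.48 (limma adjusted p = 0.803). Wt1 is also a gene of mesothelium and of kidney podocytes. The 7 mesothelial markers summed to 1311 to 1623 units at 46 h and 1450 to 1568 at 54 h, with overlap. Of the mesothelial markers past the filter 3 had positive and 2 negative changes. Krt19 and Krt18, under the filter, were higher at 54 h without overlap, as were 6.48% of the probe sets past the filter. In the fit without the filter their changes were 0.20 and 0.21, with unadjusted p of 0.202 and 0.125 in limma. Of 4 measured podocyte genes, Nphs1 was below the filter level on all arrays. Podxl read 1902 to 2314 units, Synpo 980 to 1116 and Ptpro 225 to 318. The sum of the 4 was lower at 54 h, narrowly without overlap, at 3350 to 3829 units at 46 h and 3306 to 3315 at 54 h. The 3 past the filter had negative changes, whereas Nphs1 had 0.25 in the fit without the filter. Among those past the filter, 0 markers of either list reached an unadjusted p of 0.05 in limma. The part of these cells in the Wt1 values was not tested.

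The SF-1 targets of steroid output held 12 measured genes of 16 listed, all past the filter. In limma 0 passed when adjusted over all probe sets, and at an unadjusted p of 0.05 there was 1 higher, against 4.34% of all probe sets, and 0 lower, against 5.75%. The higher gene was Inha, the inhibin alpha subunit, which read 1838, 2017 and 2214 units at 46 h and 2160.2, 2725 and 2326 units at 54 h, a log2 difference of 0.24 ± 0.10 SE with a limma adjusted p of 0.467. Its times overlapped through 54 h replicate 1. The other 11 had negative changes, with a median over all 12 of -0.06; 9 were negative with median centring or quantile normalization, with a median of -0.03 under each. Star, the cholesterol carrier, had -0.05 ± 0.03 SE and Mc2r, the ACTH receptor, -0.0025 ± 0.05. The summed intensity of the 12 was lowest on 54 h replicate 1, at 129672 units against 136990.0 to 145568 on the others. Nr5a1 was lowest on the same array, as were the summed medulla and zona glomerulosa genes, at 78366 and 23002 units. The median log2 value of the probe sets past the filter was also lowest there, at 9.04. The sum of the 12 was highest on 46 h replicate C, but Nr5a1 on 54 h replicate B. A link between Nr5a1 and these sums was not tested. The highest value in the whole table was 17879 units, and Star read 16426 to 17813; whether such values are compressed was not tested.

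Among partners and cofactors of the 6 factors, 21 of 25 listed genes were measured and all passed the filter. In limma 0 passed when adjusted and, at an unadjusted p of 0.05, 1 was higher and 0 lower, against 4.34% and 5.75% of all probe sets; 13 had positive changes, and the median was 0.05. At that level 2 were higher and 0 lower with median centring, and 2 higher and 1 lower with quantile normalization. The higher gene was Zfpm2, which encodes FOG2, the cofactor that GATA4 and GATA6 bind. Its brightest probe set read 370, 377 and 467 units at 46 h and 576, 555 and 493 units at 54 h. It was higher without overlap, as were 6.48% of all probe sets tested. The log2 difference was 0.41 ± 0.12 SE with a limma adjusted p of 0.314. A second Zfpm2 probe set had -0.04, so the gene's readings were not of 1 kind. The acetyltransferases that CITED2 recruits had changes of 0.18 ± 0.11 SE for Crebbp and 0.10 ± 0.08 for Ep300 in their brightest probe sets; other Crebbp probe sets past the filter had -0.08 and 0.07. Hif1a, which CITED2 displaces from these proteins, had 0.10 ± 0.08.

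Related factors and regulators of Nr5a1 were measured for 19 of 20 genes listed, of which 15 passed the filter; Lhx9, Emx2, Six4 and Sox9 were below its level on all arrays. In limma 0 passed when adjusted, and 0 higher and 2 lower reached an unadjusted p of 0.05, against 4.34% and 5.75% of all probe sets (0 and 1 with median centring, 1 and 2 with quantile normalization). The 2 were Gata2, a GATA factor of chromaffin and blood cells, and Wnt4, a signal of the zona glomerulosa. Gata2 read 1695, 1500.4 and 1573 units at 46 h and 1339, 1407 and 1354 at 54 h (-0.21 ± 0.08 SE, limma adjusted p = 0.418). It was lower without overlap, as were 9.05% of all probe sets tested. Wnt4 had -0.30 ± 0.13 SE (limma adjusted p = 0.466). The other probe sets of these genes had -0.11 for Gata2 and -0.24 for Wnt4. Among other zona glomerulosa markers, Vsnl1 was higher without overlap (0.30 ± 0.06 SE, limma adjusted p = 0.139), as were 6.48% of all probe sets tested. Cyp11b2, Dab2 and Agtr1b had -0.07, -0.02 and -0.02, with overlap. Medulla genes beside Gata2 were lower by a median of -0.09, 9 of 9 negative, with 4 at an unadjusted p of 0.05 (2 with median centring), against 5.75% of all probe sets, and 0 past the adjusted test in limma; 8 of 9 were negative with median centring or quantile normalization. Their part in the Gata2 values was not tested. Cited1, the relative of Cited2, had 0.29 ± 0.15 SE, and Nr5a2, the relative of Nr5a1, -0.11 ± 0.15 in its brightest probe set. Other Nr5a2 probe sets past the filter had 0.15 and -0.07. The median of the 15 was -0.02, the same as over all probe sets tested, and turned to 0.0068 with median centring.

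**Figure D4:**
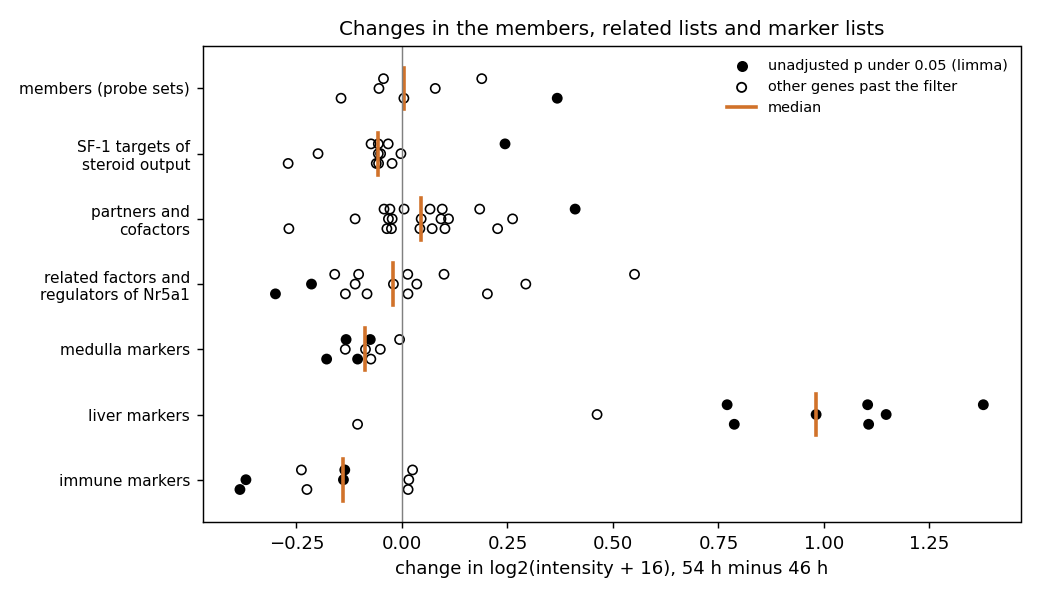
Change between 46 h and 54 h in log2(intensity + 16) for the 7 member probe sets past the filter and for the genes of 3 related lists and 3 marker lists, each gene by its brightest probe set; filled points have an unadjusted p under 0.05 in limma and bars mark medians. The members' median of 0.0046 lies near 0, as do the related lists, while the liver markers have a median of 0.98.

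Genes with the most similar course over the 6 arrays were sought for the 4 members past the filter, by the root mean square difference between median-centred log2 deviations from each gene's own mean. Over 13776 genes, each by its brightest probe set, the closest to Cited2 were Kcnma1 at 0.02 and Dr1 at 0.02. For Gata6 they were Tipin at 0.02 and Ikbkb at 0.02, and for Nr0b1 Aspa at 0.01 and 1110064A23Rik at 0.02. For Nr5a1 they were Fkbp5 and Tnfrsf12a, both at 0.05. The median difference to all genes was 0.18 for Cited2, 0.15 for Gata6, 0.16 for Nr0b1 and 0.22 for Nr5a1. Within 0.1 lay 1356 genes for Cited2, 1963 for Gata6, 1598 for Nr0b1 and 152 for Nr5a1. With 6 arrays and so many genes, close courses are easily found, and these names are a description of the arrays.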

How the data were processed

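RNA of whole adrenal glands was hybridised to 1 Affymetrix mouse array per sample. The authors deposited a single table of linear intensity values, with a row for each probe set; the summarisation, background correction and normalization are not given in the sources used here. RNA came from a column kit and carried a biotin label, per the labels' protocols. Of 45001 rows, 64 controls, 1 without values and 1 with a damaged value were left out. Names come from the annotation of the platform; the gene ID and symbol of all 11 member probe sets matched RefSeq (GRCm38.p6), and 0 further probe sets named a member together with other genes.

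Values were used as log2(intensity + 16) without rescaling, so fold changes of dim probe sets are understated. The difference between 54 h and 46 h was fitted in limma 3.58.1 (R 4.3.3; lmFit, eBayes with trend). P-values are two-sided and were adjusted by the Benjamini-Hochberg method across the 26961 probe sets past the filter, with a threshold of 0.05. Members under the filter were read from the same fit without it. An exact test of 3 against 3 arrays cannot go below p = 0.1. The procedure was also run on simulated data with noise drawn independently for each array. Deviations of the real arrays were correlated, and no result here rests on that run. The main probe set of a gene was its brightest; list genes were named if past an unadjusted p of 0.05, with a few well-known members. Several genes were also named after their values were seen: Cited1, Crebbp, Ep300, Hif1a and Nr5a2. The members and lists were chosen with earlier results of these data known. Promoters and plots used Python 3.11.15 and matplotlib 3.10.9.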

Additional observations from a re-analysis of the deposited data

How the results depend on the processing

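The number of member probe sets past limma's adjusted test was 0 under every alternative run: quantile normalization, median centring, dropping the filter or raising it to the 60th percentile, an offset of 1 or of 64, eBayes without trend or robust, the replicate block and leaving out each array. At an unadjusted p of 0.05 the count of 1 became 2 with quantile normalization and with median centring, and 1 to 2 when an array was left out (2 without 46 h replicate 1, 46 h replicate C or 54 h replicate B). Over all probe sets, 31 past the adjusted test became 47 with quantile normalization, 50 with median centring, 48 with the higher filter, 3 without trend, 61 with a robust fit, and 2 to 65 when an array was left out: 2 without 46 h replicate 1 or 54 h replicate C, 18 without 46 h replicate B, 61 without 54 h replicate B and 65 without 54 h replicate 1. The cause was not tested. With the replicate block the count was 45, with 0 member probe sets past the adjusted test and 1 at an unadjusted p of 0.05. Deviations from the mean of each time, for arrays named alike, correlated at -0.06 (replicate 1), -0.41 (B) and -0.49 (C) across probe sets. Those of 46 h replicate B and 54 h replicate C correlated at 0.46, and those of 46 h replicate C and 54 h replicate B at 0.38. The deviations within a time sum to 0, which ties these correlations to one another. They cannot show whether the replicate names pair the arrays. The source of these correlations was not tested.

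Of 108 values of single member probe sets under alternatives, 101 kept their direction and side of the threshold. The 7 others turned sign, all when an array was left out and none past the test: Nr5a1 1418315_at ran from -0.20 to 0.0857, Nr0b1 from -0.0025 to 0.16, Gata6 1443081_at from -0.26 to 0.22 and Gata6 1425463_at from -0.11 to 0.0230. Both Cited2 probe sets stayed positive, from 0.13 to 0.25 and from 0.29 to 0.45. Probe sets under the filter have values only for the alternatives that kept them. Low signal limits Gata4, Wt1 and the dim Nr5a1 probe set.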
